A study of Bos taurus with 16 samples.

Results

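Claudins and junction adhesion genes were followed in precision-cut liver slices (PCLS) of dairy cows treated with PPAR agonists. The members were the claudins CLDN1, CLDN2, CLDN3, CLDN12 and CLDN14, the occludin gene OCLN, the tight junction scaffold gene TJP1, the E-cadherin gene CDH1 and the adhesion molecule gene NRCAM. They make up 9 of the 28786 gene names in the count table, were found there by their symbols, and all 9 were among the 19824 genes that passed the filter on low counts. The set had been chosen by measured values, namely the normalised counts of agonist and control slices of the same cow in 12 libraries. Every agonist value of these 9 genes in those libraries is therefore given as a description with no p-value, and counts of calls among them stand only beside the share of all genes called.

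Liver biopsies came from Jersey cows in their first lactation, sampled shortly after calving, and slices were kept in William's Medium E for 18 h. The methods state that all treatments were adjusted for the vehicle, 0.8% dimethyl sulfoxide (DMSO). The labels call the control slices untreated, and a figure caption of the paper describes controls in medium only. Whether the controls held the vehicle is therefore not certain. The other slices received 100 µM WY-14643, a PPARα agonist, 50 µM GW-501516, a PPARδ agonist, or 100 µM rosiglitazone, a PPARγ agonist. Each of the 4 cows gave 1 library per treatment, 16 in all, so that each group held 3 libraries from cows 581, 576 and 567. The fourth animal, cow 574, entered no fit and is described separately. The methods report low RNA integrity for an animal that was left out, without numbering it. They also describe that animal as a clear outlier in a principal component analysis. The study's supplementary tables hold only the cows other than 574. The ages of the cows are not given in the sources used here, and doses differed between the PPARδ agonist and the other agonists.

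Tight junctions seal the space between neighbouring epithelial cells. In the liver they separate the bile canaliculi from the blood side of the hepatocytes. Claudins and occludin form the strands of the junction within the membrane, and scaffold proteins such as that encoded by TJP1 tie the strands to the actin cytoskeleton. E-cadherin holds the adherens junction together below it. NRCAM is a cell adhesion molecule of the immunoglobulin superfamily, best known from neurons, where it binds ankyrin.

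The 12 libraries of cows 581, 576 and 567 held 3081981 to 10227330 counts in genes, of which 11.9 to 63.8% belonged to RN18S1 (18S ribosomal RNA). Cow 576 had the highest share in its PPARδ agonist slices, with 9993 genes detected against 12933 to 17461 in the other 11 libraries. Reads outside annotated genes made up 29.1 to 54.1% of all reads. The labels of 3 libraries hold an additional mark of unstated meaning, namely cow 581 with the PPARα and PPARδ agonists and cow 567 with the PPARα agonist, and these 3 were the deepest. All 14 hepatocyte markers were detected in every group, with summed levels of 2853 to 7468 CPM (counts scaled to a common library size) in the control libraries and 2483 to 14397 CPM over all 12. In slices that hold several cell types, fewer cells of a type and less RNA per cell cannot be told apart.

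Levels below are CPM after TMM normalisation, the scaling of edgeR, listed for cows 581, 576 and 567 in that order. Each library read tags from the 3-prime end, so levels do not scale with gene length, but they depend on how well the end of each gene is annotated. NRCAM and TJP1 were the most abundant of the 9, with 10.3 to 76.1 CPM and 26.7 to 54.6 CPM in the control slices. CDH1, OCLN and CLDN2 lay between 1.40 and 5.38 CPM there, CLDN1 and CLDN14 at most at 1.96 CPM, and CLDN3 and CLDN12 had no counts in any control library. A floor of 3 counts equalled 0.734 to 1.19 CPM in the control libraries and 0.240 to 0.572 CPM in the PPARα agonist libraries, so the same low level was more easily seen with that agonist.

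CLDN14 with every agonist and NRCAM with the PPARγ and PPARδ agonists had the highest mean ratios to the own control among the members. CLDN14 was higher than control in all 3 cows with each of the 3 agonists. NRCAM was higher in all 3 cows with the PPARγ agonist alone. CDH1 was also above control in all 3 cows with the PPARγ agonist, but at or below control in all 3 with the PPARδ agonist. TJP1 and CLDN2 had fitted log2 fold changes of -0.71 to -0.08 over the 3 agonists.

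CLDN14 encodes a claudin that in humans and mice restricts the passage of cations and is needed for hearing. In the control slices it was at 0, 0.558 and 1.96 CPM, from 0, 2 and 8 counts. It reached 12.6, 4.39 and 29.97 CPM with the PPARα agonist. Slices with the PPARδ agonist held 4.59, 12.5 and 5.48 CPM. Every library of these 2 agonists thus lay above the highest control library. Under the PPARγ agonist its level was 13.0, 17.6 and 10.7 CPM, the narrowest range of the 3 agonists and again without overlap with control. Fitted log2 fold changes of CLDN14 were 4.10 ± 1.07, 3.03 ± 1.04 and 3.92 ± 1.07 (SE, n = 3 in each group) for the PPARα, PPARδ and PPARγ agonists. These sizes rest on the few control counts. Without the control library of cow 567, which held 8 of the 10 control counts, they came to 5.57, 4.50 and 5.38, and without the PPARα agonist library of cow 567 that of the PPARα agonist was 3.24. Without the PPARδ agonist library of cow 576 that of the PPARδ agonist was 2.42.

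CLDN1, CLDN2, CLDN3 and CLDN12 were sparse. CLDN1, a barrier claudin that also serves hepatitis C virus as an entry factor in human liver, was at 1.19, 0 and 0.979 CPM in control slices. Its highest value was 8.38 CPM in the PPARδ agonist library of cow 581, while the other PPARδ agonist libraries held 0 and 0.756 CPM. Its fitted fold change with that agonist, 2.08 ± 2.06 on the log2 scale, became -0.82 without this library. CLDN1 was at 2.20, 0 and 2.08 CPM with the PPARα agonist and at 0, 1.29 and 2.38 CPM with the PPARγ agonist. No agonist group was clear of the control range for CLDN1. In cow 576 it had counts with the PPARγ agonist alone.

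CLDN2 forms channels for cations and water rather than a barrier. It was at 4.77, 1.40 and 5.38 CPM in control slices and at 2.11, 0.954 and 3.92 CPM with the PPARα agonist, below the own control in all 3 cows. It was at 8.15, 0 and 1.51 CPM with the PPARδ agonist, and at 1.89, 0.323 and 7.62 CPM with the PPARγ agonist. Groups overlapped throughout. Fitted log2 fold changes of CLDN2 were -0.71 ± 1.51, -0.23 ± 1.504 and -0.24 ± 1.51 with the PPARα, PPARδ and PPARγ agonists. The last of these ran from -1.78 without the PPARγ agonist library of cow 567 to 0.31 without that of cow 576. That of the PPARδ agonist ran from -2.25 without the PPARδ agonist library of cow 581 to 0.33 without that of cow 576, and that of the PPARα agonist from -1.29 to -0.35 without the PPARα agonist libraries of cows 567 and 576.

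CLDN3, a barrier claudin, had no counts in the 3 control libraries, 12, 0 and 22 counts under the PPARα agonist, 17, 0 and 0 under the PPARδ agonist and 10, 0 and 0 under the PPARγ agonist. All 3 agonist libraries of cow 581 thus held counts, and no library of cow 576 did. Counts pooled over each agonist group were set against a floor of 3 counts pooled over the control group. The ratios of CLDN3 were 3.84, 3.39 and 2.41 with the PPARα, PPARδ and PPARγ agonists, the latter 2 from cow 581 alone. Pooling gives the deepest libraries the most weight and leaves out the counting error of the agonist counts, so these ratios are not lower bounds. In cow 581 alone the levels of CLDN3 were 0.976, 1.95 and 2.703 CPM with the PPARα, PPARδ and PPARγ agonists. There 3 counts in the control library of that cow were worth 1.19 CPM, so that the first lay below that floor. CLDN12 had 5 counts in the PPARα agonist library of cow 567 and none in the other 11 libraries, which was too few for a fold. It passed the filter on low counts through that library alone.

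OCLN and TJP1 are the other tight junction members. OCLN, a membrane protein of the tight junction strand, was at 4.38, 1.95 and 4.40 CPM in control slices. The PPARα agonist slices held 13.5, 0.381 and 12.5 CPM, high in the 2 cows whose libraries hold the additional mark and low in cow 576. The PPARδ agonist slices held 1.61, 0.660 and 2.46 CPM, below the own control in all 3 cows. The PPARγ agonist slices held 11.9, 8.87 and 3.33 CPM, above the own control in cows 581 and 576. Fitted log2 fold changes of OCLN were 1.30 ± 1.18, -1.15 ± 1.198 and 1.16 ± 1.18 with the PPARα, PPARδ and PPARγ agonists, so that each lay within about its own standard error of 0, and all groups overlapped with control. The 14 hepatocyte markers summed to 4273, 2853 and 7468 CPM in the control slices of cows 581, 576 and 567. They reached 12449, 2483 and 14397 CPM with the PPARα agonist, low in the same cow 576 in which OCLN was low. With the PPARγ agonist they stood at 8644, 9660 and 6194 CPM, above the own control in the same 2 cows as OCLN. With the PPARδ agonist they stood at 7227, 7586 and 5526 CPM. These were above the own control in cows 581 and 576, where OCLN was below it, and below it in cow 567, as was OCLN. Their part in the level of OCLN was not tested.

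TJP1 was at 26.7, 32.1 and 54.6 CPM in control slices, at 42.4, 31.9 and 33.4 CPM with the PPARα agonist and at 28.9, 28.1 and 37.2 CPM with the PPARγ agonist. The agonist values fell inside the control range in all 6 of these libraries. Its levels with the PPARδ agonist were 38.9, 1.32 and 34.2 CPM. The low value came from 4 counts in the library of cow 576 with the high RN18S1 share. The PPARδ agonist gave a fitted log2 fold change of -0.60 ± 0.61, and of -0.07 without that library. In a later RefSeq assembly a pseudogene overlaps TJP1, and reads from it cannot be told apart here.

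CDH1 and NRCAM belong to other adhesion systems. CDH1 was at 4.77, 5.02 and 3.43 CPM in control slices, from 12, 18 and 14 counts. It was at 10.0, 15.97 and 7.38 CPM with the PPARγ agonist, each above the highest control. The PPARδ agonist gave 1.38, 0 and 3.40 CPM, each below the lowest control, although cow 567 differed from its control by less than the worth of 1 count. The PPARα agonist gave 2.20, 0 and 5.27 CPM, below the own control in cows 581 and 576 and above it in cow 567. Fitted log2 fold changes of CDH1 were -0.80 ± 1.28, -1.42 ± 1.32 and 1.33 ± 1.30 with the PPARα, PPARδ and PPARγ agonists. With 1 library left out they ran from -1.92 without the PPARα agonist library of cow 567 to -0.24 without that of cow 576 for the PPARα agonist. For the PPARδ agonist they ran from -2.52 without the PPARδ agonist library of cow 567 to -0.92 without that of cow 576, and for the PPARγ agonist from 0.98 to 1.57. Between the PPARγ and PPARδ agonists the fitted difference was 2.76 ± 1.36 on the log2 scale. It was 2.13 ± 1.31 between the PPARγ and PPARα agonists.

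NRCAM had the largest number of counts among the 9. Control slices held 10.3, 32.7 and 76.1 CPM, from 26, 117 and 311 counts. It stood at 190, 510 and 150 CPM with the PPARγ agonist, from 704, 3162 and 629 counts, each above the highest control. The PPARδ agonist gave 63.8, 158 and 68.6 CPM and the PPARα agonist 56.0, 24.4 and 55.2 CPM, both overlapping control. The control of cow 567 was the highest control library, and in that cow neither the PPARα nor the PPARδ agonist exceeded it.

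The fitted log2 fold change of NRCAM was 2.83 ± 0.54 with the PPARγ agonist, and those for the PPARδ and PPARα agonists were 1.28 ± 0.51 and 0.18 ± 0.50. As log2 ratios to the own control, taken after 1 CPM was added, the PPARγ agonist gave 4.08, 3.93 and 0.97. The PPARδ agonist gave 2.51, 2.24 and -0.15, and the PPARα agonist 2.33, -0.40 and -0.46. Cows 581 and 576 thus shared a high ratio with the PPARγ and PPARδ agonists that cow 567 did not show to that extent. Directly set against each other, the PPARγ agonist exceeded the PPARα agonist by 2.64 ± 0.53 and the PPARδ agonist by 1.55 ± 0.51 on the log2 scale. The fold change with the PPARγ agonist was 2.09 when cow 576 was left out of that group, and without the control library of cow 567 it was 3.71. Without the latter library that of the PPARδ agonist was 2.16, and without the PPARδ agonist library of cow 576 it was 0.71. That of the PPARα agonist ran from -0.31 without the control library of cow 581 to 1.06 without that of cow 567.

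**Figure D1:**
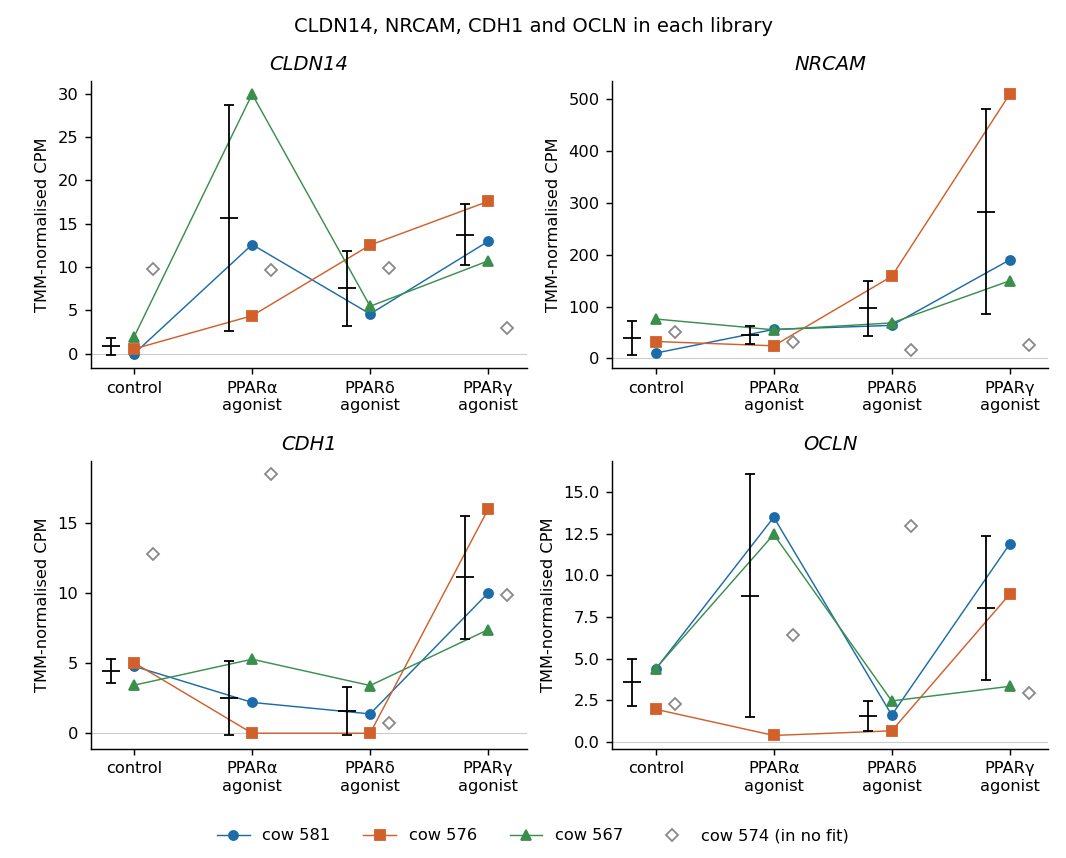
TMM-normalised CPM (vertical axis) of CLDN14, NRCAM, CDH1 and OCLN in each library by treatment. Filled symbols joined by lines are cows 581, 576 and 567, black bars their mean ± SD, and open symbols cow 574. The 3 PPARγ agonist libraries of NRCAM, at 150 to 510 CPM, and of CLDN14, at 10.7 to 17.6 CPM, lie above the control libraries of the same 3 cows.

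Counted over the 9 members, 8 had a value that could be set against control, CLDN3 being taken at its pooled ratio to the floor of 3 control counts. For the PPARα agonist 5 of the 8 were higher and 3 lower, with the PPARδ agonist 4 and 4, and with the PPARγ agonist 6 and 2. Their median log2 fold change was 0.59, 0.52 and 1.22, against a median of 0.12, 0.00 and 0.08 over all 19824 genes tested. The members had been chosen on these same contrasts, so a median apart from that of all genes says nothing beyond that choice. The 3 agonists were compared with the same 3 control libraries.

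Under edgeR's quasi-likelihood test over all genes with an adjusted p under 0.2, CLDN14 was the only member called higher with the PPARα agonist (1 of 9), where 0.424% of all genes were called higher and 0.111% lower. CLDN14 and NRCAM were called higher with the PPARγ agonist (2 of 9), with 0.328% of all genes called higher and 0.303% lower. For the PPARδ agonist 0 of 9 were called, with 0.252% of all genes higher and 0.0555% lower. At an unadjusted p under 0.05 that test held 1551 genes with this agonist. No member was called lower with any agonist. With the cow as a block, pairing each library with the control of the same cow, CLDN14 was called with the PPARα agonist and CLDN14 and NRCAM with the PPARδ and PPARγ agonists, where 2.68, 2.03 and 2.86% of all genes were called. The 2 calls with the PPARδ agonist fell to 0 in that fit without the PPARδ agonist library of cow 576 or the control library of cow 581. DESeq2 without the block called the same members with the PPARα and PPARγ agonists and CLDN14 with the PPARδ agonist, beside 2.17, 3.55 and 2.58% of the genes to which it gave an adjusted p with the PPARα, PPARδ and PPARγ agonists. The members were selected on these same contrasts, so the counts say nothing beyond that choice. Without the control library of cow 581, where CLDN14 had no counts and NRCAM its lowest level, 0 members were called with any agonist in the fit without the block. With the block and without that library, CLDN14 and NRCAM were called with the PPARγ agonist and 0 members with the others.

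By the simpler measure of groups that did not overlap, CLDN14 lay above control with the PPARα agonist, as did 9.33% of all genes, while 4.73% lay below. For the PPARδ agonist CLDN14 lay above and CDH1 below, beside 4.59% and 4.77% of all genes. For the PPARγ agonist CLDN14, CDH1 and NRCAM lay above control and no member below, beside 8.70% and 6.01% of all genes.

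**Figure D2:**
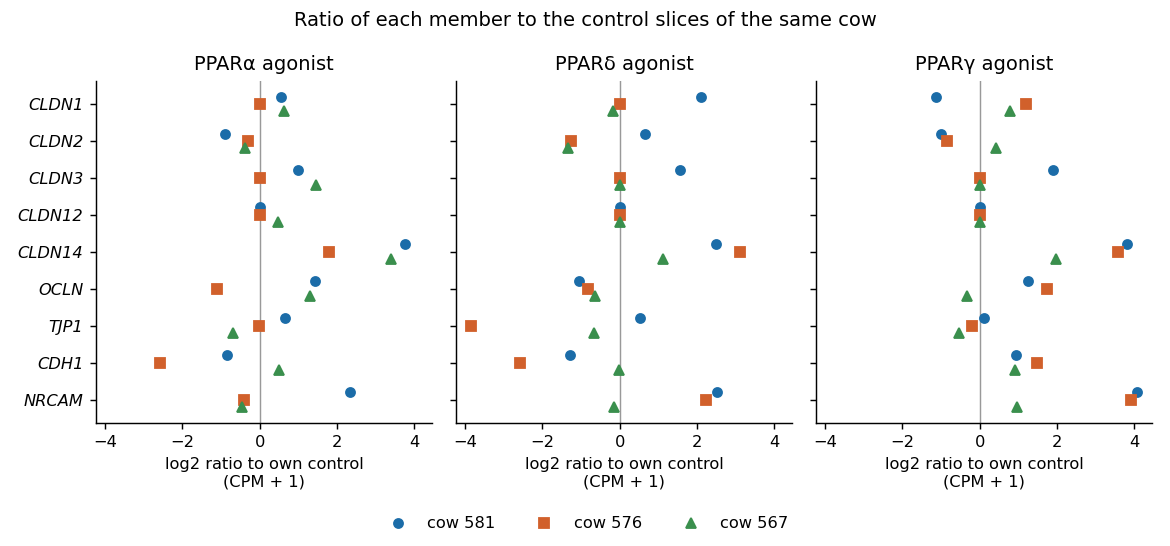
Log2 ratio of each of the 9 genes to the control slices of the same cow (horizontal axis, after 1 CPM was added) for the PPARα, PPARδ and PPARγ agonists, with 1 symbol per cow. CLDN14 lies to the right of 0 in all 9 pairs, at 1.13 to 3.80, and the lowest TJP1 value, -3.83, is the PPARδ agonist library of cow 576.

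**Figure D3:**
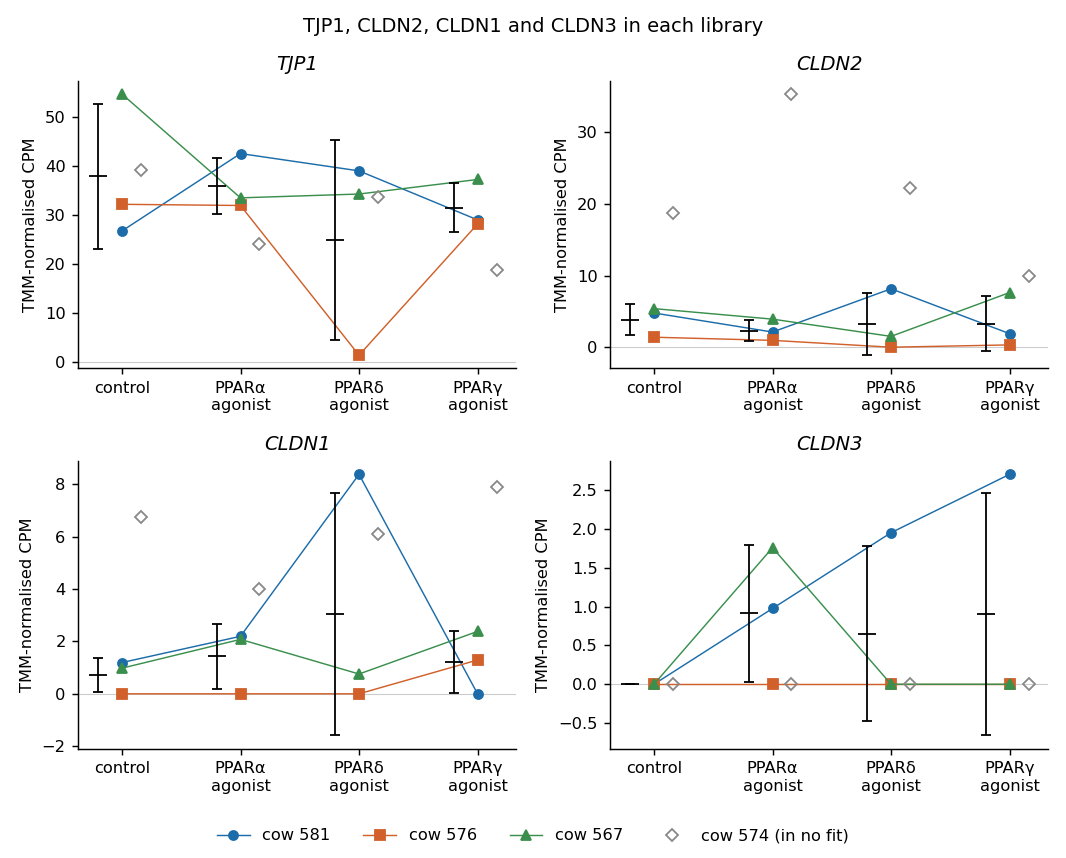
TMM-normalised CPM (vertical axis) of TJP1, CLDN2, CLDN1 and CLDN3 in each library by treatment, with filled symbols for cows 581, 576 and 567, black bars for their mean ± SD and open symbols for cow 574. Agonist and control libraries overlap for TJP1, CLDN2 and CLDN1, and CLDN3 is at 0 in every control library.

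Cow 574 had not been used to choose the genes and gave values independent of the choice, at 1 library per treatment and only 772012 to 970406 counts in genes. Between 79.6 and 84.3% of its reads fell outside annotated genes. Its libraries held 16937 to 18952 detected genes, against 9993 to 17461 in the 12 deeper libraries of the other cows. The part of RNA quality in the levels of this cow was not tested. Its values therefore cannot decide whether the differences seen in the other cows hold in a further animal. Intervals below are exact Poisson intervals at 95% and cover counting error alone. NRCAM was at 51.1 CPM (39.7 to 64.8) in the control slices, 32.1 CPM (22.9 to 43.7) with the PPARα agonist, 16.8 CPM (10.5 to 25.4) with the PPARδ agonist and 26.7 CPM (17.6 to 38.8) with the PPARγ agonist. All 3 agonist libraries of this cow thus held less NRCAM than its control, the PPARα agonist within overlapping intervals, which for the PPARγ agonist was the opposite order to the other 3 cows.

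CLDN14 in cow 574 was at 9.77 CPM (5.20 to 16.7) in control slices, 9.63 CPM with the PPARα agonist and 9.93 CPM with the PPARδ agonist. Its PPARγ agonist library held 3 counts, or 2.96 CPM (0.611 to 8.66). The higher level of CLDN14 that all agonists showed in the other cows was not present here, and its control level was itself above the 1.96 CPM of the highest control among those cows. CDH1 was at 12.8 CPM (7.44 to 20.5) in control slices and at 0.764 CPM (0.0193 to 4.26) with the PPARδ agonist, from 17 counts and 1 count. That was the same direction as in the other cows. CDH1 stood at 9.88 CPM (4.74 to 18.2) with the PPARγ agonist and at 18.5 CPM (11.7 to 27.7) with the PPARα agonist, both overlapping the control interval.

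OCLN in cow 574 ran opposite to the other cows with the PPARδ agonist, at 13.0 CPM (7.56 to 20.8) against 2.25 CPM (0.465 to 6.59) in control slices. It was at 6.42 CPM with the PPARα agonist and at 2.96 CPM with the PPARγ agonist. TJP1 was at 39.1, 24.1, 33.6 and 18.8 CPM with control, PPARα, PPARδ and PPARγ agonist, and CLDN2 at 18.8, 35.3, 22.2 and 9.88 CPM. All 4 CLDN2 values of this cow lay above the 8.15 CPM of the highest library of the other cows. CLDN1 lay between 4.01 and 7.90 CPM in the 4 libraries, CLDN3 had no counts and CLDN12 had 1 count with the PPARγ agonist. With 465038 to 678161 counts outside RN18S1 per library, these levels say little on small differences.

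Other cells of the liver express some of these genes, and their markers moved between groups. The 10 bile duct cell markers, cells in which CDH1 and several claudins are abundant, summed to 33.0 to 157 CPM in control slices, 103 to 169 CPM with the PPARα agonist, 67.3 to 78.8 CPM with the PPARδ agonist and 36.8 to 74.9 CPM with the PPARγ agonist, where CDH1 and NRCAM were highest. These sums lean on SPP1, which averaged 50.7 CPM in control slices and 18.3 CPM with the PPARγ agonist. Gene by gene, their median log2 fold change was 0.60, -0.02 and 0.61 with the PPARα, PPARδ and PPARγ agonists. Of the 10 markers 9, 4 and 6 lay above 0, and 0 were called. In the control and PPARδ agonist groups 9 of these markers were detected, and 10 in the other groups. The 8 nerve and Schwann cell markers, listed because NRCAM is known from nerve, summed to 65.6 to 112 CPM in control slices and 51.0 to 54.3 CPM with the PPARγ agonist, and SOX10, the defining Schwann cell factor, had no counts in any of the 12 libraries. GFAP was at 0 in all but the PPARγ agonist group. The groups held counts for 6, 5, 5 and 7 of the 8 markers with control, PPARα, PPARδ and PPARγ agonist.

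Markers of blood-derived and vessel cells lay lower with the PPARγ agonist, with no overlap with control, and the lymphocyte markers did so with every agonist. The 9 lymphocyte markers summed to 64.7 to 77.2 CPM in control slices 25.8 to 49.8, 16.2 to 34.7 and 11.6 to 18.6 CPM with the PPARα, PPARδ and PPARγ agonists. The 10 macrophage markers summed to 351 to 962 CPM in control slices and, in the same order of agonists, 266 to 437, 47.2 to 289 and 105 to 195 CPM, clear of control with the latter 2. The 10 endothelial markers summed to 426 to 661 CPM in control slices and 207 to 558, 390 to 468 and 177 to 259 CPM, and the 11 stellate cell and fibroblast markers to 343 to 1233 CPM and 309 to 2781, 326 to 449 and 147 to 224 CPM. The endothelial sums lean on PECAM1, which averaged 293 CPM in control slices and 98.9 CPM with the PPARγ agonist. The stellate cell and fibroblast sums lean on DCN (544 and 112 CPM). Gene by gene, the median log2 fold changes of these 2 lists with the PPARγ agonist were -1.34 and -1.06, with 0 and 1 of 10 tested markers above 0. MS4A1 was at 0 in control slices and CD79B in the PPARδ and PPARγ agonist groups, and RGS5 had counts with the PPARγ agonist alone. The part of these cell types in the members' levels was not tested.

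The members differed among themselves in how their levels ran across the 12 libraries. OCLN and CDH1 had a Pearson r of 0.77 on log2 CPM, CLDN14 and NRCAM 0.72 and CLDN2 and TJP1 0.69. NRCAM and CLDN2 had the lowest, at -0.36. These 12 libraries share cows, treatments and depth, and the values are descriptions. With the RN18S1 share of the library, TJP1 had an r of -0.71 and CLDN1 of -0.66, while NRCAM had 0.08. With the log2 of the counts in genes, CLDN14 had an r of 0.64 and NRCAM of 0.17.

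Of 8212 genes with a mean of at least 50 counts, those whose levels ran most like NRCAM over the 12 libraries were RASSF8 (r = 0.96), NMRAL1 (0.95) and SNX9 (0.92). For CLDN14 they were POLD4 (0.95), SH3GL1 (0.94) and LRRC1 (0.94). For CDH1 they were PALM3 (0.92), CLIP1 (0.89) and RAB11FIP4 (0.87), and RAB11FIP4 was also among the 3 nearest to OCLN (0.87), after RAD21L1 (0.90) and ITIH2 (0.89). TJP1 ran closest to MEX3D (0.99), SLC23A2 (0.99) and SPECC1 (0.98). The remaining 4 members had a mean under 20 counts and were not compared in this way.

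Wider lists of junction and adhesion genes, 146 in all, gave 123 genes that could be tested. For the PPARα agonist 1 was called higher and 1 lower, with the PPARγ agonist 2 higher and 0 lower, and with the PPARδ agonist none. The genes called higher were 0.813 and 1.63% of the list with the PPARα and PPARγ agonists, beside 0.424 and 0.328% of all genes. Over these 123 genes the median log2 fold change was 0.00, 0.13 and 0.25 with the PPARα, PPARδ and PPARγ agonists. Groups did not overlap for 15 genes with the PPARα agonist (5 above control, 10 below), 10 with the PPARδ agonist (4 and 6) and 23 with the PPARγ agonist (14 and 9). Above control lay 4.07, 3.25 and 11.4% of the list, beside 9.33, 4.59 and 8.70% of all genes. Below control lay 8.13, 4.88 and 7.32% of the list, beside 4.73, 4.77 and 6.01% of all genes. At an unadjusted p under 0.05, edgeR held 10, 11 and 10 of the 123, beside 1562, 1551 and 1347 of all 19824 genes. At an adjusted p under 0.2, DESeq2 called 3, 3 and 4 of the list, beside 2.17, 3.55 and 2.58% of all genes with an adjusted p. With the cow as a block 5, 5 and 6 were called, where 2.68, 2.03 and 2.86% of all genes were, but 1, 2 and 2 once the control library of cow 581 was left out of that fit as well, and 11, 3 and 12 once the PPARδ agonist library of cow 576 was.

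CDH17, the liver-intestine cadherin, rose with the PPARα and PPARγ agonists. It was at 37.4, 45.2 and 53.8 CPM in control slices, 213, 54.2 and 196 CPM with the PPARα agonist and 222, 261 and 157 CPM with the PPARγ agonist. Both groups lay wholly above control, with cow 576 only just so for the PPARα agonist. The log2 fold change was 1.76 ± 0.44 with the PPARα agonist and 2.23 ± 0.44 with the PPARγ agonist (adjusted p = 0.109 and 0.0135, edgeR). CDH17 stood at 154, 82.2 and 62.7 CPM with the PPARδ agonist, a log2 fold change of 1.13 ± 0.43 that did not pass (adjusted p = 0.512, edgeR). The log2 difference of the PPARδ from the PPARα agonist was -0.63 ± 0.42 and that of the PPARγ from the PPARδ agonist 1.10 ± 0.43, and neither passed (adjusted p = 0.811 and 0.930, edgeR). The hepatocyte markers were likewise high with the PPARα agonist in cows 581 and 567 (12449 and 14397 CPM) and low in cow 576 (2483 CPM). With the PPARδ and PPARγ agonists they were below the own control in cow 567 (5526 and 6194 against 7468 CPM), where CDH17 was above it. Their part in the level of CDH17 was not tested. Without the 3 libraries with the additional mark, which hold the high PPARα agonist values, the fold change with the PPARα agonist was 0.30 and was no longer called. Its call was also lost without the PPARα agonist library of cow 581 (adjusted p = 0.285) or the control libraries of cow 581 (0.703) or cow 576 (0.354), and that of the PPARγ agonist without the control library of cow 581 (0.226).

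PARD6B, a cell polarity protein of the complex that positions tight junctions, fell with the PPARα agonist. Control slices held 76.4, 27.1 and 187 CPM and PPARα agonist slices 26.995, 26.1 and 15.7 CPM. All agonist values lay below all controls, in cow 576 by a small margin. The log2 fold change was -2.08 ± 0.53 (adjusted p = 0.120, edgeR), and -1.17 without the control library of cow 567, when it was not called (adjusted p = 0.616). Without the control library of cow 581 it was not called either (0.487). PARD6B stood at 37.5, 224 and 151 CPM with the PPARδ agonist and at 105, 136 and 88.8 CPM with the PPARγ agonist. The PPARδ and PPARγ agonists exceeded the PPARα agonist by 2.58 ± 0.54 and 2.26 ± 0.53 on the log2 scale, and both differences passed (adjusted p = 0.0456 and 0.0839, edgeR).

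**Figure D4:**
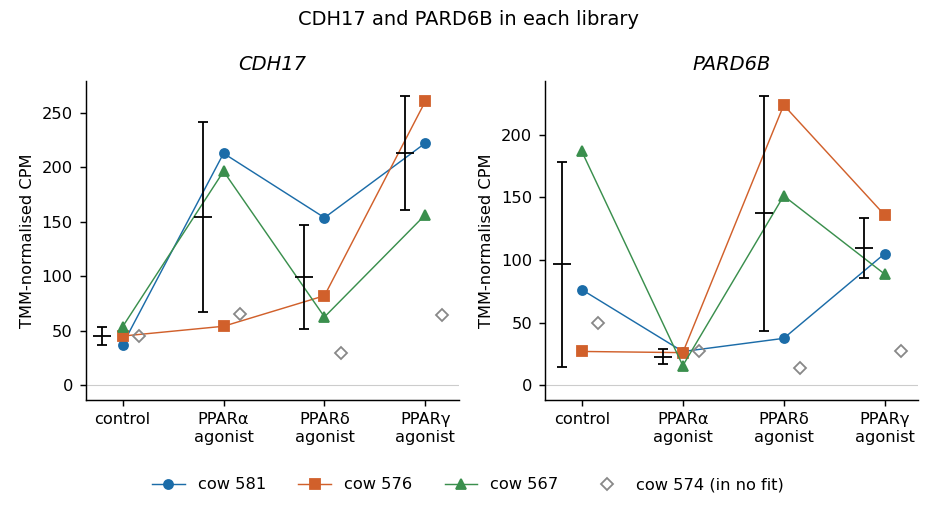
TMM-normalised CPM (vertical axis) of CDH17 and PARD6B in each library by treatment, with filled symbols for cows 581, 576 and 567, black bars for their mean ± SD and open symbols for cow 574. The PPARγ agonist libraries of CDH17 (157 to 261 CPM) lie above the controls, and the PPARα agonist libraries of PARD6B (15.7 to 26.995 CPM) below them.

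In cow 574 CDH17 was at 45.1 CPM in control slices, 65.8 CPM with the PPARα agonist, 29.8 CPM with the PPARδ agonist and 64.2 CPM with the PPARγ agonist. PARD6B was at 49.6 CPM in control slices and at 27.3, 13.7 and 27.7 CPM with the PPARα, PPARδ and PPARγ agonists. All 3 agonist libraries of this cow thus lay below its control for PARD6B, and the order of the PPARδ and PPARγ agonists above the PPARα agonist was not seen there.

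By list, none of the 13 tested among the other claudins was called with any agonist. Their most abundant members were CLDN5, the claudin of vessel endothelium, with a mean of 20.9 CPM over the 12 libraries, CLDN4 with 17.4 CPM and CLDN6 with 14.0 CPM, so that CLDN5 was more abundant than every claudin among the 9. CLDN6 was at 0, 0 and 5.7 CPM with the PPARδ agonist against 6.0, 24.6 and 23.7 CPM in control slices, a log2 fold change of -3.23 that was called with the cow as a block alone (adjusted p = 0.00448, edgeR). None of the 11 other tight junction membrane proteins was called, F11R (junctional adhesion molecule A, 84.7 CPM), LSR, a protein of tricellular contacts (24.5 CPM), and CXADR (23.8 CPM) being the most abundant. Of the 21 scaffold and polarity genes tested, PARD6B was the one called with the PPARα agonist, and YBX3, a factor that binds the TJP1 protein (172 CPM), CGNL1 (135 CPM) and AMOTL2 (130 CPM) were the most abundant. AMOTL2 had a log2 fold change of 1.06 with the PPARγ agonist, called with the block alone (adjusted p = 0.0520, edgeR).

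Of 9 other cadherins CDH17 was the one called. CDH2, the N-cadherin that hepatocytes carry beside E-cadherin, averaged 166 CPM, far above CDH1, and had log2 fold changes of 0.47, 0.31 and 0.42 with the PPARα, PPARδ and PPARγ agonists, none of which passed. CDH5, the cadherin of vessel endothelium (57.6 CPM), had a log2 fold change of -1.36 with the PPARγ agonist, called with the block alone (adjusted p = 0.1995, edgeR). Among the 13 cadherin partners and nectins 0 were called. The most abundant of them were CTNNB1, the beta-catenin (129 CPM), AFDN, the afadin (113 CPM), and NECTIN3 (99.2 CPM).

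JUP, the plakoglobin of adherens junctions and desmosomes, and PERP, a desmosome protein, were called higher with each agonist when the cow was a block. JUP was at 0.4, 7.8 and 21.05 CPM in control slices, 32.4, 19.6 and 59.6 CPM with the PPARα agonist, 43.2, 40.3 and 25.7 CPM with the PPARδ agonist and 40.5, 44.2 and 41.9 CPM with the PPARγ agonist. Its log2 fold changes were 1.91, 1.87 and 2.09, with blocked adjusted p of 0.0239, 0.0191 and 0.00420 and unblocked ones of 0.374, 0.452 and 0.308 (edgeR). PERP was at 3.6, 6.4 and 36.7 CPM in control slices and between 9.3 and 123 CPM in the 9 agonist libraries. Its log2 fold changes were 2.12, 1.82 and 1.88, with blocked adjusted p of 0.00541, 0.00691 and 0.00309 (edgeR). For both genes the control library of cow 581 was the lowest of the 12.

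None of the 14 desmosome genes tested, the 9 connexins, the 21 adhesion molecules of the immunoglobulin type and partners of NRCAM, or the 12 transcription factors that act on CDH1 was called without the block. After PERP, PKP4 (46.0 CPM) and DSP, the desmoplakin (36.9 CPM), were the most abundant desmosome genes, and GJA1 (69.1 CPM), GJB1 (16.8 CPM) and GJB2 (6.50 CPM) the most abundant connexins. ALCAM (70.3 CPM), CADM1 (60.3 CPM) and DLG1 (38.7 CPM) led the adhesion molecules and NRCAM partners, and ALCAM had a log2 fold change of -1.06 with the PPARγ agonist, where NRCAM was high, without passing (adjusted p = 0.605, edgeR). NCAM2 had -2.54 with the PPARα agonist, called with the block alone (adjusted p = 0.147, edgeR).

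ZEB1, a repressor of CDH1 (51.3 CPM), KLF4, an activator (36.3 CPM), and TCF3 (15.9 CPM) were the most abundant of the transcription factors. ZEB1 had log2 fold changes of 0.69 and 0.14 with the PPARγ and PPARδ agonists and KLF4 of -0.83 and 1.97, and neither passed. ZEB2, another repressor of CDH1, with a mean of 9.48 CPM and chosen after its values were seen, was at 23.9, 23.9996 and 16.6 CPM in control slices and 5.68, 3.07 and 1.43 CPM with the PPARγ agonist. Its log2 fold changes were -1.45, -2.06 and -2.66 with the PPARα, PPARδ and PPARγ agonists, none of which passed (adjusted p = 0.666, 0.598 and 0.442, edgeR). KLF4 and GRHL2, an epithelial activator with a log2 fold change of 3.20, were called higher with the PPARδ agonist with the block alone (adjusted p = 0.0499 and 0.0829, edgeR).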

How the data were processed

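The deposited values were raw counts of reads per gene from QuantSeq 3-prime libraries of 16 liver slice samples. The authors used Trimmomatic 0.39 for trimming and STAR 2.7.1 for mapping, with ARS-UCD1.2 as the genome, and no normalisation was applied to the deposited counts. The table carries the name of STAR's own gene table and NCBI symbols, whereas the study's methods name Ensembl annotation and StringTie 2.0. No strand setting is given in the sources used here; reads of overlapping genes could therefore not be parted. Of 28786 gene names, 26 had been turned into dates, and 4 tallies of reads outside genes (3.69 to 17.1% unmapped, 4.93 to 6.75% multimapping, 29.1 to 54.1% in no gene and 0.380 to 1.40% ambiguous in the 12 libraries tested) were left out.

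The 19824 genes that exceeded a count of 4 in any of the libraries of cows 581, 576 and 567 were normalised by TMM and fitted with edgeR 4.0.16 (R 4.3.3, limma 3.58.1), using the quasi-likelihood F test with treatment as the only term and all 4 groups in 1 fit. Benjamini-Hochberg adjustment was made over all genes of a comparison, and genes were called at 0.2. Standard errors were derived from the test, as the size of the log2 fold change divided by the square root of F. They rest on a spread estimated over all 12 libraries and partly shared between genes. Each treatment had 1 library from each of 3 cows. The p-values therefore rest on the spread between libraries, in which differences between animals, slices and libraries are mixed. This fit took the 12 libraries as independent, and the pairing by cow entered only the fits with the cow as a block. The study's methods used DESeq2 1.30.1. DESeq2 1.42.0, its size factors, other filters, the cow as a block, libraries left out and all 16 libraries were tried as alternatives. The fits were tested on simulated data.

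Same-numbered libraries come from the same animal, by the labels. Their deviations from the group means had a median correlation of 0.107 (-0.0289 to 0.282, 18 pairs), against -0.0562 over 36 pairs of different cows.

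The 9 members and all lists were chosen with earlier results of these data known. The text names the 9 members, of each list the genes called in any agonist and the 3 most abundant, and for each member with a mean of at least 20 counts the 3 genes with the highest Pearson correlation of log2 CPM (prior count 2). Genes called with the block alone were named after their values were seen. Gene names of overlapping features came from RefSeq's table of a later assembly. Some genes counted in the lists are not reported here by name.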

Additional observations from a re-analysis of the deposited data

Results flagged for a closer look

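Among 36 groups of 4 libraries (9 genes in 4 treatments, cow 574 included), 5 held a library far from the other 3 on the log2 CPM scale after 1 CPM was added, where chance gives about 1 in 20. In 4 of them the other 3 libraries had no counts, so the gap was the whole range (ratio 1): CLDN3 under both the PPARδ and PPARγ agonists in cow 581, CLDN12 with the PPARα agonist in cow 567 and CLDN12 with the PPARγ agonist in cow 574. The fifth was TJP1 with the PPARδ agonist, where cow 576 lay at 1.33 against 5.11 to 5.46 in the other cows, a gap of 0.915 of the range, in the library with the RN18S1 share of 63.8%.

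In cow 574, which no comparison used, OCLN with the PPARδ agonist was at 12.986 CPM, with an exact Poisson interval (7.56 to 20.8) that lay above that of its control (0.465 to 6.59). With 1 library per treatment this difference has no replicate check.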

How the results depend on the processing

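Counts of genes called with the PPARα, PPARδ and PPARγ agonists (106, 61 and 125) moved with most choices. DESeq2 called 320, 524 and 370 genes, edgeR without a filter 408, 340 and 332, with its own filter on low counts 0, 3 and 9, with the cow as replicate block 532, 402 and 567, and with all 16 libraries 0, 0 and 0. Without the 3 marked libraries the PPARδ and PPARγ agonists gave 308 and 461. Leaving out 1 library at a time gave 0 to 1002, 7 to 345 and 13 to 618, each lowest count without the control library of cow 581, the highest without the PPARα agonist library of cow 576 (PPARα) or the PPARδ agonist library of cow 576 (PPARδ and PPARγ). In 2 paired fits added after the data were seen, the block without the control library of cow 581 gave 118 and 260 with the PPARδ and PPARγ agonists, and without the PPARδ agonist library of cow 576 1636, 403 and 1254. With the size factors of DESeq2 or without RN18S1 the counts stayed within 1.5 times. No called value of a member or of CDH17 or PARD6B changed direction.

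Of the members called, CLDN14 was lost with the PPARα agonist without the control libraries of cows 581 or 576, the PPARα agonist library of cow 567 or the marked libraries, and with the PPARγ agonist without the control libraries of cows 581 or 576 or any PPARγ agonist library. In the fit without the block NRCAM was lost with the PPARγ agonist without the control library of cow 581, whereas with the block CLDN14 and NRCAM stayed called there. Both were lost with edgeR's own filter and in the 16 libraries, except NRCAM with the block there. In the 16 libraries the log2 fold change of CLDN14 was 2.33, 1.54 and 2.04. Over 23 alternatives the adjusted p of edgeR or DESeq2 was under 0.2 in 20 for CDH17 with the PPARγ agonist, and in 16 for CDH17 and 18 for PARD6B with the PPARα agonist. Depth limited CLDN1, CLDN2, CLDN3 and CLDN12, whose means were under 20 counts.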
